A study of Mus musculus with 2 samples.

Results

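T cell receptor variable (V) segments are the interchangeable exons from which developing T cells build the antigen-binding end of each receptor chain. Here they are the genes that GENCODE vM21 types as TR_V_gene, and 144 of the 53843 annotated genes on chromosomes 1 to 19 and X were of that kind. The Tra/Trd locus on chromosome 14 held 115 of them (names in Trav, Trdv and 2 Rik clone names), the Trb locus on chromosome 6 held 22 (Trbv) and the Trg locus on chromosome 13 held 7 (Tcrg-V and Trgv2). The annotation type alone set which genes belong, and no measured value was used. CTCF binding at these segments was read from chromatin immunoprecipitation followed by sequencing (ChIP-seq) of midbrain tissue from B6NCrl mice at postnatal day 0. There was 1 group, with 2 replicates and no treatment, mutant or other tissue beside it. Both replicates are registered under the same tissue sample and donor, and their spread may therefore be technical only. Peak lists hold no RNA levels, so the tissue could not be checked by its marker genes.

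A T cell receptor chain gene is assembled in the thymus by V(D)J recombination, in which the RAG proteins cut beside a V segment and join it to a D or J segment. RAG recognises a recombination signal sequence (RSS) at the downstream end of each V segment, made of a conserved heptamer, a spacer and a nonamer. CTCF uses its zinc fingers to bind a motif that has a direction, and together with the cohesin ring it anchors chromatin loops. In developing T cells, CTCF and cohesin occupy V segment promoters and the region around the alpha enhancer. The alpha and delta chain segments are nested in 1 locus, and in C57BL/6 mice a central stretch of Trav segments is present in repeated copies whose names carry d, n or no letter. The midbrain is not a site of V(D)J recombination.

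The sequences under the peaks are shown first, because the direction of the CTCF motif was shared by every segment that held one. The motif was a weight matrix learned from the strongest peaks of this experiment, on chromosomes of the other parity from those it was used on. Each line gives the match under a segment's peak, 5′ to 3′, read from the RefSeq sequence of GRCm38.p6 at mm10 coordinates, and capitals mark bases equal to the consensus of the matrix.
Matrix consensus: TGGCCACCAGGGGGCGCTAT
Trav17, chr14:53806399-53806418, plus strand: TGaCCACaAGGGGGCaCTgT
Trbv12-1, chr6:41113050-41113069, plus strand: TGatCACtAGGtGGCGCTgT
Tcrg-V7, chr13:19177788-19177807, plus strand: TcaCCtCaAGGGGGtGCcAa
Trdv1, chr14:53881439-53881458, plus strand: TaGCCAaaAGGtGGCagTgT
Trav3-4, chr14:53776872-53776891, plus strand: TGtCCACaAGGGGGCagagc
Trbv12-2, chr6:41118354-41118373, plus strand: TGcaCAttAGGGGGCGCTgc
Trav3-3, chr14:53665836-53665855, plus strand: TGtCCACtAGGGGGCagagc
Trav6-7-dv9, chr14:53709815-53709834, plus strand: TGGtCACtAGaGGGCGCagc

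These 8 segments had the strongest peaks that held a motif. All 8 segments read on the plus strand, and all 8 motifs lay on that strand. Trav17 and Trbv12-1 had the strongest segment peaks of their loci, and Tcrg-V7 is the only gamma segment with a peak.

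Wider windows show where the motif sits relative to the segment, for the strongest segment peak of each locus. Each window is a stretch of 300 bp upstream of the segment start on mm10, and capitals mark the CTCF motif.
Trav17, chr14:53806339-53806638, plus strand, 300 to 1 bp upstream: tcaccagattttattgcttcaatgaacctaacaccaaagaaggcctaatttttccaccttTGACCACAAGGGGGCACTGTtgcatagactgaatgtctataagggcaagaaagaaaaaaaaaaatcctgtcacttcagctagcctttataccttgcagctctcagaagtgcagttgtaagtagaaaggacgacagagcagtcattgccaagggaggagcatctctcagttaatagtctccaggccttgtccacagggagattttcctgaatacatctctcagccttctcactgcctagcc
Tcrg-V7, chr13:19177724-19178023, plus strand, 300 to 1 bp upstream: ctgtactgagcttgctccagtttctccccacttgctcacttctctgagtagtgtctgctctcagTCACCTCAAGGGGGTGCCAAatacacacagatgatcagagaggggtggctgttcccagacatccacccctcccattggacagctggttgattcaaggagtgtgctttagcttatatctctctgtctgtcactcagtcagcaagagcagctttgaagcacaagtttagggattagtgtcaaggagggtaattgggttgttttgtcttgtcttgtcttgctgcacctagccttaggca
Trbv12-1, chr6:41112950-41113249, plus strand, 600 to 301 bp upstream: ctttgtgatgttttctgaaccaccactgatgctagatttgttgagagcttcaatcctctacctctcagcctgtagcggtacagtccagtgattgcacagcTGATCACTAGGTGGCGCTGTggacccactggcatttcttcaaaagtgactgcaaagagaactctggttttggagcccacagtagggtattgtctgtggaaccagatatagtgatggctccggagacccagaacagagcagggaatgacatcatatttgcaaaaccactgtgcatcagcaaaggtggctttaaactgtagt

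The RSS of the same 3 segments lies at the other end of the segment. Capitals mark the heptamer position directly after the segment and the nonamer position after a spacer of 23 bp.
Trav17, chr14:53807116-53807154, plus strand: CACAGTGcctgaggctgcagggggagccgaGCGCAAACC
Trbv12-1, chr6:41114068-41114106, plus strand: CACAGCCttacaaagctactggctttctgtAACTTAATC
Tcrg-V7, chr13:19178493-19178531, plus strand: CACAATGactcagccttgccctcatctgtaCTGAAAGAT

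Of the 3, Trav17 carried the consensus heptamer at this position and the others carried a variant of it. The bases at the nonamer position were not compared with a consensus. Over all V segments the exact consensus heptamer stood there in 14 of 22 segments with a CTCF peak and in 90 of 122 without one. The first bases of the heptamer, CAC, were present in 22 of 22 and in 119 of 122. In Tra/Trd the exact heptamer stood at 12 of 15 segments with a peak and 83 of 100 without one. The same counts were 2 of 6 and 6 of 16 in Trb, and 0 of 1 and 1 of 6 in Trg. The distance from the centre of the CTCF motif to the downstream end of the segment was 695.5 bp in the median of the Tra/Trd segments with a motif in the peak (range 561.5 to 942.5).

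A peak counted for a segment when its summit in the optimal list lay within 1 kb of the segment start. The optimal list is 1 of 2 deposited lists thresholded by the irreproducible discovery rate, and held 68590 peaks on the chromosomes used. By this rule 22 of 144 V segments had a peak (15.3%, 95% Wilson interval 10.3 to 22.0). The background was 10861 of 53843 annotated genes (20.2%) and 7689 of 21755 protein-coding genes (35.3%). The interval of the V segments includes the share of all annotated genes and lies below that of protein-coding genes. The lists give no depth, so a segment without a peak is one where the optimal list held none. Intervals cover counting error only. In bulk tissue, binding in fewer cells and weaker binding in every cell cannot be told apart.

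The share was 13.0% in the Tra/Trd locus (15 of 115, interval 8.07 to 20.4), 27.3% in Trb (6 of 22, 13.2 to 48.2) and 14.3% in Trg (1 of 7, 2.57 to 51.3). These intervals overlap. For other large receptor families that lie in clusters, the counts were 5 of 218 immunoglobulin V segments (2.29%), 0 of 173 Olfr odorant receptor genes of chromosome 9 and 0 of 236 Vmn2r vomeronasal receptor genes. The immunoglobulin segments were Igkv7-33, Igkv8-19, Ighv5-17, Ighv11-1 and Ighv11-2, named after their values were seen.

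Signal values below are the authors' own per peak, and the sources used here do not state their scale. They rank peaks within a list and are not binding levels. The median over all optimal peaks was 76.5. Each segment's value in the optimal list is followed by the values of the matching summit, within 100 bp, in each replicate's own list.

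The strongest segment peak was at the alpha chain segment Trav17 (chr14:53806639-53807115). Its signal was 372, with 206 in replicate 1 and 166 in replicate 2, and its summit lay 235 bp upstream of the start. A peak of this rank exceeded 91.7% of all optimal peaks, and it was among 7 segment peaks above 100. Next was Trbv12-1, a beta chain segment, at 257 (155 in replicate 1 and 102 in replicate 2), with its summit 490 bp upstream. Its duplicate Trbv12-2 had 170 (92.3 and 77.3), with the summit 484 bp upstream, so the paired segments carried peaks at almost the same offset. A further copy, the pseudogene Trbv12-3, had a peak 515 bp upstream with a signal of only 19.7.

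Tcrg-V7, a gamma segment used by T cells of the gut epithelium, had 248 (138 in replicate 1 and 109 in replicate 2), with its summit 230 bp upstream. It was the only one of the 7 gamma segments with a peak. The nearest summit to Tcrg-V5, the gamma segment of epidermal T cells, was this same peak, 14484 bp upstream.

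Trdv1, a segment that joins to delta D segments, had 214 (108 in replicate 1 and 106 in replicate 2), with its summit 165 bp upstream. It was the only one of 5 Trdv segments with a peak. Trdv4, the delta segment of epidermal T cells, had its nearest summit 10185 bp upstream.

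The Trav3 family had a peak at 3 of its 5 segments. Trav3-4 had 201 (103 in replicate 1 and 98.8 in replicate 2), Trav3-3 had 115 (63.6 and 51.2) and Trav3-1 had 51.8 (32.5 and 17.8). Their summits lay 60, 64 and 142 bp upstream. All 5 Trav3 segments held a motif, and those without a peak were the d and n copies Trav3d-3 and Trav3n-3.

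Trav10d had 99.6 (47.1 in replicate 1 and 52.5 in replicate 2), 100 bp upstream. Trav6-7-dv9, which can serve in alpha and in delta chains, had 93.7 (56.2 and 37.7), 95 bp upstream. The beta segment Trbv2 had 69.4 (49.8 and 19.8), 590 bp upstream. These 3 lay on either side of the median peak of the whole list.

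Trav6n-6 had 59.5 (29.2 in replicate 1 and 29.5 in replicate 2), 142 bp upstream, and a second summit of 19.8 lay 65 bp inside the segment. Trav18 had 55.3 (25.8 and 25.4), 220 bp upstream. The other 9 segments with a peak were Trbv20, Trav7-1, Trbv29, Trav23, Trbv19, Trav8n-2, Trav12-3, Trav7-5 and Trav10, with signals between 50.7 and 19.2. In all, 13 of the 22 were below the median of all optimal peaks.

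**Figure D1:**
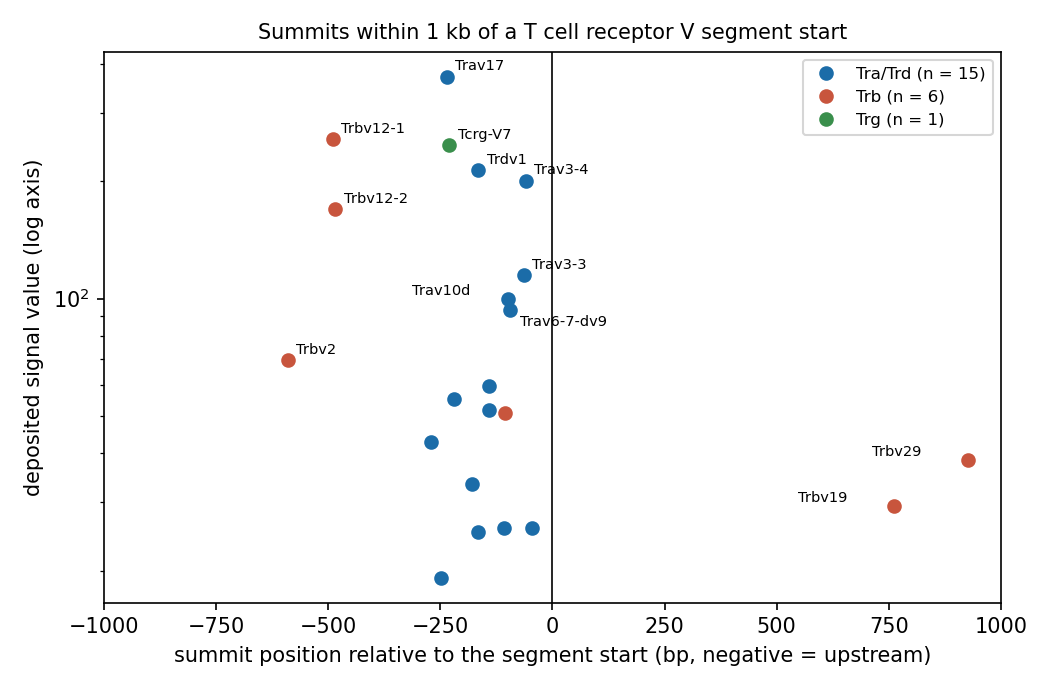
Summit position relative to the segment start (x axis, bp, upstream negative) and deposited signal value (y axis, log scale) for the strongest peak within 1 kb of each of 22 V segments, coloured by locus. The 15 Tra/Trd points sit between 270 and 46 bp upstream, while the 6 Trb points range from 590 bp upstream to 927 bp downstream.

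In position, the Tra/Trd segments were close to one another. All 15 had their summit 1 to 300 bp upstream of the start, between 270 and 46 bp. Over the 3 loci that held for 17 of 22 segments with a peak (77.3%), against 3337 of 10861 annotated genes with a peak (30.7%). The Trb summits were spread, with 1 of 6 in that interval. Nearest to the 1 kb limit on the inside were Trbv29, with 38.5 (18.8 in replicate 1 and 17.8 in replicate 2) at 927 bp after the start, and Trbv19, with 29.3 (16.4 and 9.45) at 761 bp after. Trbv2 followed, with its peak 590 bp before the start. On the outside were Trbv5, with 67.3 (39.0 in replicate 1 and 26.7 in replicate 2) at 1054 bp before the start, and Trav16, with 63.2 (35.6 and 31.0) at 1663 bp before. Between them was Trbv3, for which the peak that counts for Trbv2 lies 1540 bp before the start. The Trbv29 and Trbv19 summits lie beyond the downstream end of their segments.

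The replicates gave like values for most segment peaks. A summit within 100 bp was found in both replicate lists for 21 of the 22. Of these 21, 19 had a log2 ratio of replicate 1 to replicate 2 within 1 unit of the median. That median was 0.30, with an SD of 0.46, over the 67101 optimal peaks found in both replicate lists. Of those 67101 peaks, 94.8% also lay within 1 unit of it. The 2 exceptions were Trav7-1 (30.6 in replicate 1 and 9.47 in replicate 2) and Trbv2. Trav7-1's ratio stood 1.39 log2 units above the median, farther than 98.2% of the peaks found in both lists. For Trav10 replicate 2 had 13.4 and replicate 1 had no summit within 100 bp, although its list held one of 13.0 elsewhere within 1 kb of the start. Trav7-1 and Trav12-3 were the segment peaks whose summit was not in the conservative list, which held the other 20.

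**Figure D2:**
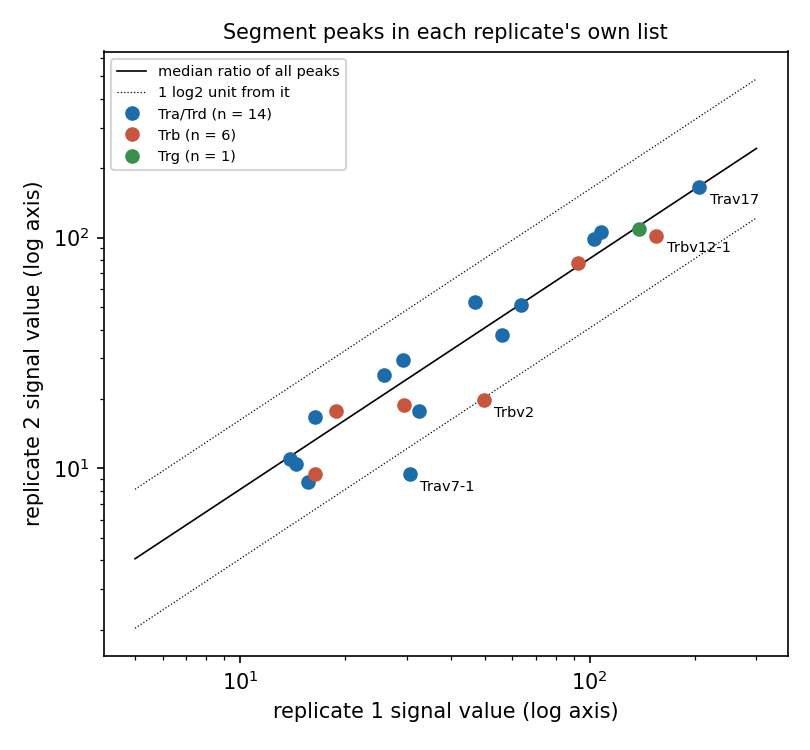
Signal value in replicate 1's own list (x axis) and replicate 2's own list (y axis), both on log scales, for the 21 segment peaks found in both. The solid line is the median ratio of the optimal peaks found in both replicate lists, and the dotted lines stand 1 log2 unit from it. Trav7-1 and Trbv2 are the points on the replicate 1 side of the lower dotted line.

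A CTCF motif, at a per-position p of 1e-05, lay wholly within 50 bp of the summit in 17 of the 22 segment peaks. All 17 motifs pointed in the direction of their segment (100%, interval 81.6 to 100). Among all annotated genes with a motif in their peak, 2003 of 3596 did (55.7%, 54.1 to 57.3). In the other 5, Trav10d and Trav10 had a motif farther from the summit, and Trbv2, Trbv19 and Trbv20 had a match only at 1e-04.

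The motif was also searched in the sequence alone, within 1 kb of every start, whether or not a peak was listed. It was found at 76 of 144 V segments (52.8%) and at 8596 of 53843 annotated genes (16.0%). All 76 V segment motifs read in the segment's direction, against 4571 of the 8596 (53.2%). Of the 76, 68 had their motif centre 1 to 350 bp upstream (89.5%), against 2101 of the 8596 (24.4%). All V segments except Trdv5, Trbv31 and Trgv2 read on the plus strand, and those held no motif within 1 kb at this threshold. The direction of a segment and that of its locus therefore cannot be told apart here or in the count of motifs under peaks. Segments of a family descend from one another, so these counts are not independent.

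By locus, 71 of 115 segments in Tra/Trd held the motif (61.7%), 67 of the 71 in that upstream interval. In Trb 3 of 22 did (Trbv12-1, Trbv12-2 and Trbv29) and in Trg 2 of 7 did (Tcrg-V7 and Tcrg-V4). The T cell receptor V pseudogenes held it at 15 of 34 (44.1%). Of those 15, 14 read in the pseudogene's direction and 7 lay in the upstream interval. Immunoglobulin V segments, the corresponding exons of antibody genes, held it at 44 of 218. Of those 44, 41 read in the segment's direction and 1 lay in the upstream interval.

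Presence of the motif followed the Trav family. The 108 segments named Trav fell into 21 families. In 11 families every segment held a motif and in 8 none did, which left 2 mixed families, Trav4 (3 of 7) and Trav6 (12 of 15). A family of 1 segment cannot be mixed. Such families were Trav17, Trav18 and Trav23, with a motif, and Trav1, Trav2, Trav19 and Trav21, without one. The largest families with a motif in every segment were Trav7 (13 of 13), Trav9 (10 of 10) and Trav12 (9 of 9). Those with none included Trav13 (0 of 11), Trav14 (0 of 9) and Trav15 (0 of 6). Peaks were listed in 9 families, each of which held the motif. Trav11, whose segment forms the invariant chain of natural killer T cells, held a motif in both copies, 204.5 bp upstream, and had no peak.

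Trav16 had none within 1 kb, but each of its 3 copies had a peak with a plus-strand motif farther upstream. The signal was 68.1 at 1756 bp upstream of Trav16d-dv11, 45.7 at 1721 bp upstream of Trav16n and 63.2 at 1663 bp upstream of Trav16. This set was picked out after its values were seen.

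Many Tra/Trd segments held a motif without a listed peak. Of the 71 with a motif, 15 had a peak and 56 did not. These segments differed in how unique their surroundings are. Uniqueness was measured as the share of 36 bp words within 1 kb of the start that occur once in the locus and its flanks, on either strand. Over all Tra/Trd segments, whether or not they held a motif, its median was 66.1% at the 15 with a peak (range 40.0 to 100). It was 18.5% at the 100 without one (range 0 to 100).

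Among the 71, the 28 with under 10% unique words had 0 peaks, and the 9 with 10 to 40% had 0 peaks. The 21 with 40 to 70% had 8 peaks, and the 13 with 70 to 100% had 7. The bound of 40% coincides with the lowest value of a segment with a peak, 40.0% at Trav10d. A bound placed there leaves 0 peaks below it. In the list called on both replicates together, 0, 2, 14 and 11 segments of the 4 groups had a summit within 1 kb. The median motif score, in bits of log-odds, was 20.3, 19.2, 20.4 and 18.1 in these 4 groups, in the order of rising uniqueness. How reads that match several places were placed is not given in the sources used here, and the part of sequence likeness in these counts was not tested.

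**Figure D3:**
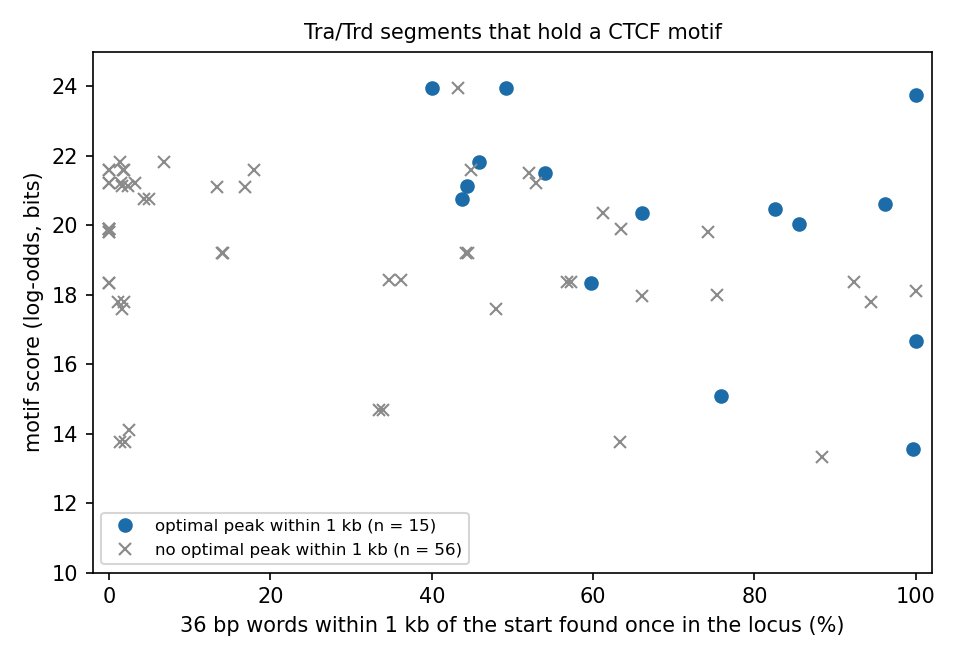
Each point is 1 of the 71 Tra/Trd segments with a CTCF motif, placed by the share of 36 bp words around its start that occur once in the locus (x axis, percent) and by its motif score (y axis, log-odds in bits), with blue circles for segments with an optimal peak and grey crosses for those without. No segment below 40.0%, the value of Trav10d, has an optimal peak. Many of these segments have motif scores as high as those of segments with one.

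The copies of a segment show the same in sequence. Of 24 sets with a d, an n and a plain copy, 18 had no peak at any copy, 5 had a peak at 1 copy and 1 had peaks at more than 1. The motif was present in every copy of 13 of these sets and in none of the copies of 11. Another 11 sets had 2 copies, of which 10 had no peak and 1 had a peak at 1 copy. Of these 11 sets, 10 held the motif in both copies and 1 in neither. Across the sets of 2 and 3 copies, each copy with a motif was compared with 1 copy of its set. That was the copy with no letter where it held a motif, and d copies were not otherwise compared with n copies. In 29 of these 36 comparisons the motifs were identical. In 11 of them only 1 copy had a peak, and the motifs of 9 of these were identical. The Trav10 set is shown because 2 of its 3 copies had peaks. In it and in the sets that follow, capitals again mark bases equal to the matrix consensus.
Trav10d, chr14:52810775-52810794, plus strand: TGGCCACaAGatGGCagTAg
Trav10n, chr14:53121892-53121911, plus strand: TGGCCACaAGatGGCagTAg
Trav10, chr14:53505568-53505587, plus strand: TGGCCACaAGatGGCagTAg

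The 3 Trav10 motifs are the same 20 bases. The signal was 99.6 at Trav10d and 19.2 at Trav10, and Trav10n had no optimal peak but a summit of 26.0 in the list called on both replicates together. The unique share of 36 bp words was 40.0% at Trav10d, 49.2% at Trav10 and 43.2% at Trav10n, so the copy without an optimal peak lay between the others. The Trav6-6 set is shown because its n copy alone had a peak.
Trav6n-6, chr14:53132566-53132585, plus strand: TGtCCACCAGGGGGCGCaga
Trav6d-6, chr14:52821788-52821807, plus strand: TGtCCACCAGGGGGCGCaga
Trav6-6, chr14:53516795-53516814, plus strand: TGtCCACCAGGGGGCGCaga

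Here too the motifs were identical. Only Trav6n-6 had a peak. The unique share was 45.8% at Trav6n-6, 6.77% at Trav6d-6 and 1.32% at Trav6-6. The Trav12-3 set is shown because its copies differ in the motif.
Trav12d-3, chr14:52929595-52929614, plus strand: aaaCCAgCAGaGGGCGCTgc
Trav12n-3, chr14:53240557-53240576, plus strand: aaaCCAgCAGaGGGCGCTgc
Trav12-3, chr14:53621565-53621584, plus strand: aaaCCAgCAGaGGGCGCTgT

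With positions counted from 1 at the motif's 5′ end, Trav12d-3 and Trav12n-3 differ from Trav12-3 by T20C. Trav12-3 had a peak of 25.7 (15.6 in replicate 1 and 8.74 in replicate 2), and neither of the others had one.

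Some segments without an optimal peak had a summit in the longer list called on both replicates together, which holds many weak peaks. This was so for 18 of the 122, a smaller share than the 12284 of 42982 annotated genes without an optimal peak. Replicate values here are the highest summit anywhere within 1 kb of the start in each replicate's list. The highest signals were 37.7 at Trav5-1 (19.2 in replicate 1 and 15.3 in replicate 2), 32.2 at Trav12-1 (14.9 and 15.6), 31.0 at Trav19 (21.0 and 9.22) and 26.0 at Trav10n (20.4 and 10.6). They overlap the weaker of the listed segment peaks in signal, so the line between segments with and without a peak runs through a continuous range.

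Across each whole locus, from the first to the last V segment with 100 kb added on both sides, 80 peaks were listed. Of these 63 held a motif (78.8%, 68.6 to 86.3), against 39956 of 68590 optimal peaks (58.3%). Repeat masking covered most of the motif in 3 of the 63 (4.76%) and in 29.7% of motifs in all peaks. Of the 80, 72 had their summit in the conservative list, and 79 were found in both replicates.

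**Figure D4:**
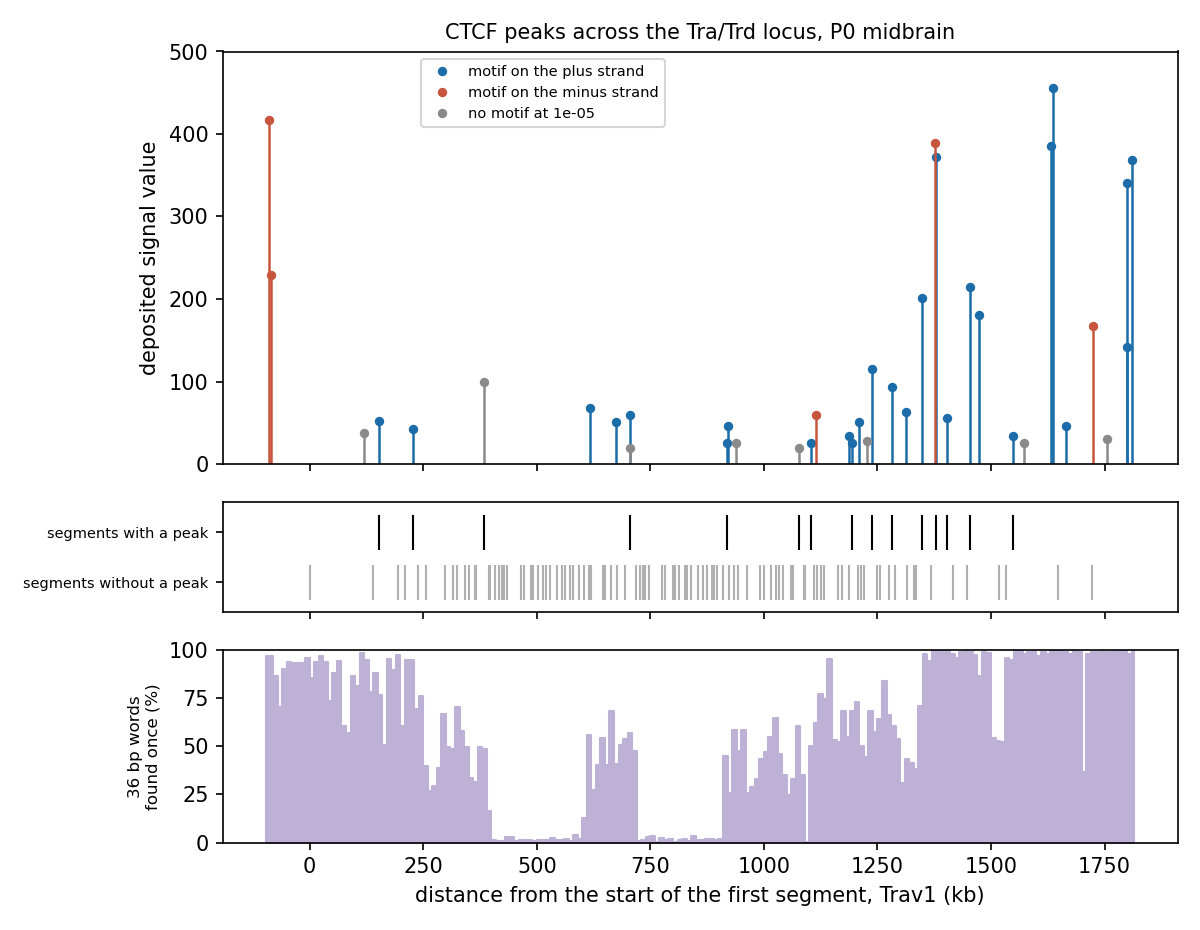
Top, deposited signal value of each CTCF peak across the Tra/Trd locus with 100 kb on both sides (x axis, kb from the start of Trav1), coloured by the strand of its motif; middle, V segment starts with and without a peak within 1 kb; bottom, percent of 36 bp words found once in the locus, in bins. No peak from Trav1 to the last repeated Trav copy exceeds 115, and peaks reach 456 towards the delta and J segments on the right.

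The Tra/Trd locus held 39 peaks, or 20.3 per Mb, close to the 21.8 per Mb of the rest of chromosome 14. Motifs lay on the plus strand in 26 and on the minus strand in 5. The peaks changed in number and strength along the locus. From Trav1 to Trav6-2 there were 12.5 per Mb, with a median signal of 42.9 and 83.4% unique words. The d copies had 5.06 per Mb, the n copies 21.5 and the copies with no letter 26.8, with unique word shares of 21.6%, 17.0% and 51.9%. Their median signals were 83.9 over only 2 peaks in the d copies, 35.7 in the n copies and 42.9 in the copies with no letter. The stretch from Trav3-4 to Trdv5 had 26.9 per Mb, with a median signal of 198 and 92.8% unique words.

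Both of the longest peak-free gaps fell in the copies. One was 235 kb long and spanned 24 V segments, with 6.17% unique words. The other was 213 kb long and spanned 20 V segments, with 6.87%. The next longest gap, of 204 kb, lay at the other end of the locus over a cluster of odorant receptor genes from Olfr1507 to Olfr1513, where 86.6% of words were unique.

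The 5 strongest peaks of the Tra/Trd locus ranged between 372 and 456. The highest was 456 (259 in replicate 1 and 197 in replicate 2), 10185 bp upstream of Trdv4, and the peak of 386 (212 and 172) stood 14940 bp upstream of the same segment. The second highest, 417 (217 and 203), lay outside the segments, 3920 bp upstream of the small nuclear RNA gene Gm26328. The peak of 389 (208 and 181) was 2204 bp upstream of Trav17 and carried a minus-strand motif, so it and the plus-strand motif of the Trav17 peak itself, 372, pointed away from each other.

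Beyond the V segments stand the J cluster, the constant gene Trac and, past it, the alpha enhancer and Dad1. A peak of 167 with a minus-strand motif lay 1970 bp upstream of Traj61, the first J segment, where the germline promoter called TEA is found. Peaks of 341 and 142 lay 7575 and 7779 bp after the start of Trac, and one of 368 lay in an intron of Dad1, a gene of protein glycosylation. These last 3 had plus-strand motifs.

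**Figure D5:**
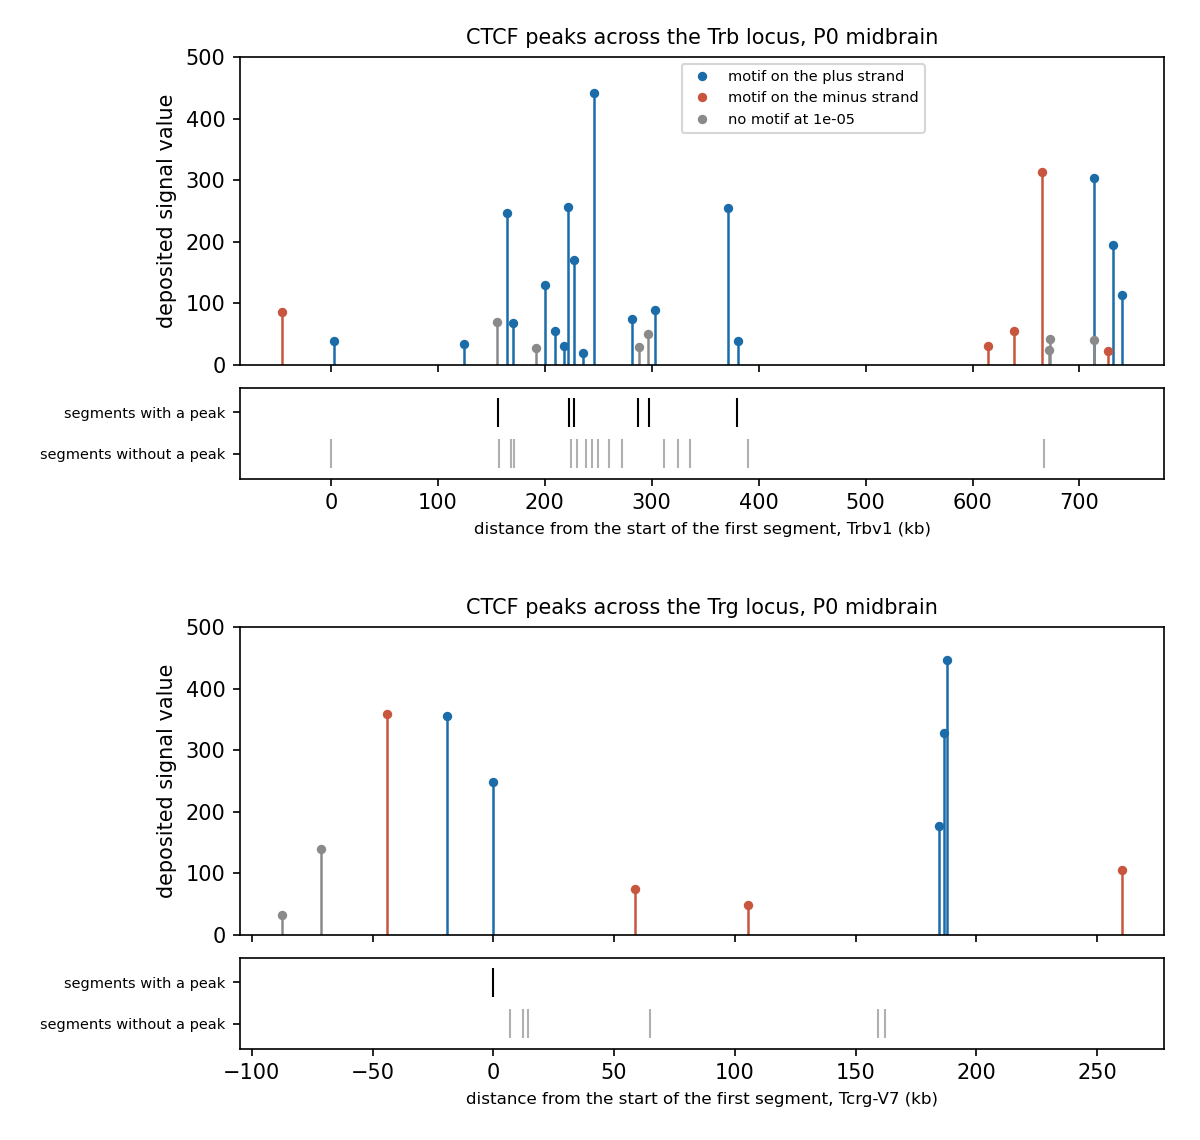
Deposited signal value of each CTCF peak across the Trb locus (upper pair of panels) and the Trg locus (lower pair), each with 100 kb on both sides, against kb from the start of the first segment and coloured by motif strand; ticks below show V segment starts with and without a peak within 1 kb. In Trb every motif from Trbv1 to Trbv29 is on the plus strand, and in Trg the peaks above 100 lie outside the V segments or at Tcrg-V7.

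The Trb locus held 30 peaks, 34.6 per Mb against 25.7 in the rest of chromosome 6. Between Trbv1 and Trbv31 a run of 15 plus-strand motifs, ending at Trbv29, was followed by 3 on the minus strand. The first of these was at the pseudogene Gm38018, the second 3010 bp upstream of the D segment Trbd1, and the last 1874 bp after the start of Trbv31, beyond its end. Trbv31 sits after the constant genes and is read in the opposite direction from the other beta V segments. The motif of that last peak, whose signal of 313 (163 in replicate 1 and 150 in replicate 2) was the second highest of the locus, thus read in the direction of Trbv31.

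The strongest Trb peak, 442 (248 in replicate 1 and 195 in replicate 2), lay 2035 bp after the start of Trbv14, beyond the end of the segment, and its motif was wholly repeat-masked. Trbv14 is a segment whose neighbours Trbv13-3 and Trbv15 also had no peak within 1 kb. The others among the strongest 5 were 304 (174 and 131) upstream of Ephb6, a receptor-like kinase gene outside the segments, 257 at Trbv12-1 and 254 (152 and 102), 8383 bp upstream of Trbv29. The longest gap without a peak, 233 kb between Trbv29 and Gm38018, spanned the trypsinogen genes that are embedded in this locus, among them Prss1, Prss3, Try4, Try5 and Try10, and 1 V segment, Trbv30.

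The Trg locus held 11 peaks, 30.4 per Mb against 22.1 in the rest of chromosome 13, but only 2 of them lay between the first and last V segment. Their signals were 73.7 and 48.2. The strongest were 447 (240 in replicate 1 and 208 in replicate 2) and 328 (176 and 152) in an intron of Stard3nl on one side. On the other side were 359 (185 and 175) in an intron of Amph and 356 (195 and 162) between Amph and Tcrg-V7. The fifth was the 248 peak at Tcrg-V7. The minus-strand motif in the Amph intron and the 3 plus-strand motifs in Stard3nl pointed away from the V segments. The plus-strand motif of the 356 peak, which was wholly repeat-masked, and the minus-strand motif of a peak of 105 beyond Stard3nl pointed toward them.

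Among V pseudogenes 5 of 34 had a peak near their start (14.7%, interval 6.45 to 30.1), close to the 15.3% of V segments and below the 20.2% of all annotated genes, which lies within the interval. They were Trbv10, Trbv12-3, Trav9n-1, Trav5-2 and Trdv3. Among J segments and J pseudogenes 2 of 80 did (2.50%, 0.688 to 8.66), the neighbours Traj37 and Traj36, which share 1 peak of 30.1. The counts were 0 of 4 D segments, with an upper limit of 49.0%, and 0 of 8 C segments, with an upper limit of 32.4%, so both intervals include the share of all annotated genes. Of 18 genes of T cell receptor assembly and signalling, among them Rag1, Rag2, Dntt, Cd3e and Lck, 1 had a peak (5.56%). The share was 20.2% of all annotated genes and 35.3% of protein-coding genes, and no interval was computed for this short list. The gene was Thy1, which neurons also express, with 40.7 (15.0 in replicate 1 and 24.9 in replicate 2). Of 19 matched genes that neighbour the loci, 6 had a peak (31.6%), between the shares of all annotated genes (20.2%) and of protein-coding genes (35.3%). Amph and Epdr1 stood beside Trg, Ephb6 beside Trb, and Dad1, Abhd4 and Mettl3 beside Tra/Trd. Dad1 and Abhd4 share 1 peak, of 69.0 (50.7 in replicate 1 and 16.6 in replicate 2).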

How the data were processed

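CTCF ChIP-seq peak lists of P0 midbrain (2 replicates, 1 group) were analysed. The authors deposited 5 lists in narrowPeak format on mm10, per the deposited notes: 1 per replicate, 1 on both together, and an optimal and a conservative list thresholded by the irreproducible discovery rate. Their signal value per peak, as deposited, has no stated scale or normalization. The sources used here name no caller, aligner, read length, depth or threshold, so precision is stated only as 95% Wilson intervals over counts.

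Segments, starts and strands came from GENCODE vM21, sequence and masking from GRCm38.p6 (RefSeq), the same build. The 2000 strongest peaks of odd chromosomes and X gave a 20 bp weight matrix for use on even ones, and the reverse. It was tested on simulated sequences. Scripts used Python 3.11.15, numpy 2.4.6, pandas 2.3.3 and scipy 1.17.1, with matplotlib 3.10.9. No test was run, since there is 1 group and members of a family share sequence.

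The members, though set by annotation type, and the lists were chosen as subjects with earlier results of these data known. All V segments with an optimal peak within 1 kb are named, with full values for the 12 strongest, the 3 nearest the limit on each side and the 5 strongest peaks of each locus. Of 20 neighbour symbols, 19 were matched. Leaving out a replicate used the other's own strongest peaks, as many as the optimal list holds, which also dropped the joint call.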

Additional observations from a re-analysis of the deposited data

How the results depend on the processing

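The count of segments with a peak was 20 to 23 with a replicate left out, and between 19 and 27 with the conservative list, a 500 bp window, the downstream end of the segment or V pseudogenes added. Only 9 segments had a peak among the stronger 50% of the list, and 44 did within 5 kb. The stronger 50% left 16 peaks across Tra/Trd and 12 across Trb. In Trg, flanks of 0 and 20 kb left 2 and 4 peaks, since most of its peaks lie outside the V segments. The share of locus peaks with a motif was 94.4% in the stronger 50%, 91.2% at a motif p of 1e-04 and 51.2% at 1e-06. Shares over all annotated genes or all peaks were not computed under these alternatives, so none of these values has a background beside it. With a replicate left out, the locus counts were 37 to 41 for Tra/Trd, 26 for Trb in both cases and 11 to 12 for Trg, and the motif share was 77.2% to 82.4%. All segment motifs kept the segment's direction except within 5 kb, where 34 of 37 did (91.9%). Under the conservative list 23 segments had a peak, of which 20 were among the 22 and 3 were gained. Without replicate 1, 18 were shared and 2 gained, and without replicate 2, 19 were shared and 4 gained. No paired analysis was possible because the results come from no test. Depth is unknown, and near-identical copies limit what a missing peak shows.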
